A study of Mus musculus with 4 samples.

Results

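Chromatin accessibility was described at 10 genes of the Notch pathway in mesenchymal stem cells (MSCs) of old and young mice. The genes were the receptors Notch1, Notch2 and Notch3, the ligands Jag1, Jag2, Dll1 and Dll4, and the targets Hes1, Hey1 and Heyl. A peak was assigned to a gene when it overlapped the gene or the 5 kb upstream of its start, and 50 of the 117282 peaks in the data met this rule. Notch2 had 16 of them, Notch1 had 9, Notch3 and Jag1 had 5 each, Jag2 and Heyl had 4 each, Dll1 had 3, Dll4 had 2, and Hes1 and Hey1 had 1 each. By position, 12 were promoter peaks, which came within 1 kb of an annotated protein-coding start, 15 were exonic, 19 intronic and 4 upstream. They were between 100 and 16000 bp wide, with a median of 2450 bp. An upstream peak of Jag2 also lay over the gene Nudt14, and it was the 1 peak of the 50 that overlapped another protein-coding gene.

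The old group was 2 samples of MSCs from mice aged 18 to 22 months, and the young group was 2 samples of MSCs from mice aged 3 to 5 months. All 4 samples were cultured at 2% O2, so that low oxygen was shared by both groups, and they were assayed by ATAC-seq, in which a transposase cuts and tags open DNA. The labels name no strain, genotype or sex and do not say whether the 2 samples of a group came from separate animals, so the p-values measure only the spread between these samples, which may be technical. The study's methods, written for cells of another experiment, describe hind-limb bone MSCs sorted for Sca-1 and PDGFRα and against blood markers. Among lists of marker genes, promoter peaks were present at 8 of 8 mesenchymal genes, Ly6a (which encodes Sca-1), Pdgfra, Prrx1 and Runx2 among them, and at 6 of 6 genes of smooth muscle and pericytes. They were present at 4 of 8 endothelial genes, where Cdh5, Tie1, Emcn and Sox17 had none, and at 3 of 8 blood genes, where Ptprc, Vav1, Itgam, Cd79a and Cd3e had none. Summed promoter values of the mesenchymal list were 21.7 and 28.2 per kb in old and 22.1 and 22.2 per kb in young MSCs. Those of the endothelial list were 20.5 and 20.004 per kb in old and 22.4 and 20.1 per kb in young MSCs, and those of the blood list were 17.3 and 22.9 per kb in old and 21.2 and 20.5 per kb in young MSCs. The smooth muscle and pericyte list had 18.45 and 21.0 per kb in old and 18.2 and 18.1 per kb in young MSCs and was the 1 list of the 4 whose groups did not overlap. Over all peaks of these lists, 0 had an adjusted p under 0.05 (limma), against 1.12% of all peaks in the data. At an unadjusted p under 0.05, 8.87% of all peaks in the data were lower and 7.49% higher in old MSCs. Beside these shares, 1 of 63 mesenchymal peaks was lower and 10 were higher, and 6 of 54 endothelial peaks were lower and 4 higher. Of 22 blood peaks 1 was lower and 3 were higher, and of 27 smooth muscle and pericyte peaks 2 were lower and 2 higher. The promoter peak of the endothelial receptor gene Tek, named after its values were seen, had 27.0 and 27.9 in old and 49.8 and 42.8 in young MSCs (log2 fold change -0.73, SE 0.22, limma adjusted p = 0.101). All 7 Tek peaks, singled out in the same way, were below 0, beside 58496 of all 117282 peaks. Among the 4 higher endothelial peaks was an intronic peak of Pecam1, from 106666201 to 106667100 on chromosome 11. Its log2 fold change was 0.67 (SE 0.28, limma adjusted p = 0.242). The part of cell composition in the results on Heyl, Dll4 and the other genes was not tested.

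Notch signalling passes between cells in contact. A Jagged or Delta-like ligand on one cell binds a Notch receptor on its neighbour, the receptor is cut by ADAM proteases and by γ-secretase, and its intracellular domain enters the nucleus, where it joins the DNA-binding protein RBPJ and Mastermind proteins to switch on genes of the Hes and Hey families. Hes and Hey proteins are repressors that bind E-box-like sites, and in the skeleton Notch is known for holding mesenchymal progenitors back from becoming osteoblasts.

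The promoter sequences of the pathway were taken from RefSeq on GRCm38.p6, which held 7 of the 10 genes (Notch1, Notch2, Notch3, Jag1, Jag2, Dll1 and Dll4). Of the 250 bases before each start, those outside every annotated exon of the gene were kept, and 4 of the promoters are shown. Jag1 is the most densely accessible ligand, and Notch1 and Notch2 are the receptors with the most peaks. Dll4 is a ligand whose promoter peak did not overlap between the age groups, which also held for Jag1, Jag2 and Dll1. Among the strongest promoter peaks of the 10 genes, 5 had both old below both young samples and 2 had them above. The shares over all promoter peaks were 25.7% and 15.7%. Capitals mark the 6 bases of an E-box-like site of HES and HEY proteins (CACGTG or CACGCG, searched on both strands), and the sequences run 5′ to 3′ along the gene. Jag1 is given on the minus strand at chr2:137116645-137116770, Dll4 on the plus strand at chr2:119325534-119325783, Notch2 on the plus strand at chr3:98013288-98013526 and Notch1 on the minus strand at chr2:26503825-26504072.
Jag1: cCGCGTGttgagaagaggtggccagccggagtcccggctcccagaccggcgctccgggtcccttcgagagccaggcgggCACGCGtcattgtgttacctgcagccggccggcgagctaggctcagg
Dll4: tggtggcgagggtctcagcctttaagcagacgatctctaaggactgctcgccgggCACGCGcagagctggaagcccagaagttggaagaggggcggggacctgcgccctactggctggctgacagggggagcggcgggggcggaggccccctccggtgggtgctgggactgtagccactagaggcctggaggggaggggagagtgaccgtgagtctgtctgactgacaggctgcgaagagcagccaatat
Notch2: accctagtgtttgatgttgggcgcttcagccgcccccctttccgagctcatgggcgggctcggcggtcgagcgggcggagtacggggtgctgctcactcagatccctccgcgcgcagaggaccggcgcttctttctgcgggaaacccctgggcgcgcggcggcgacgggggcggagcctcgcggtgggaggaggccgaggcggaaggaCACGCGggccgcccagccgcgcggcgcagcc
Notch1: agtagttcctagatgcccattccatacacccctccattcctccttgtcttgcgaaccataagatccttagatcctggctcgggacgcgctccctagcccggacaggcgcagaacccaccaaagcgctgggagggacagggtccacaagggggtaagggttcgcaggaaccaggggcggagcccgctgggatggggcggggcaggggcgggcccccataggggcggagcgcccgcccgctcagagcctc
Each of these stretches lay inside a promoter peak of its gene. Jag1 had a pair of CACGCG matches, from base -249 to -244 on the reverse strand and from -171 to -166 on the forward strand, counted from the RefSeq start. Dll4 had 1 match from -195 to -190, Notch2 had 1 from -42 to -37, and 1 of 2 Dll1 starts had 1 from -68 to -63. No match was found before the starts of Notch1, Notch3 and Jag2. A HES and HEY site stood in 12.9% of 32817 promoters of the same length, and at least 2 sites, as at Jag1, in 2.25% of them. The RBPJ motif GTGGGAA, searched on both strands, was in none of these windows and in 5.42% of all promoters. The matches describe the letters of these windows and were not tested as binding sites.

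Accessibility was first compared between the genes, within all 4 samples. A value is the number of counts in a peak for a library of 10000000, divided by a sample factor from relative log expression (RLE) that sets the typical peak equal between samples, and since wide peaks hold more counts, levels were compared per kb of peak. Jag1, a ligand known for its role in bone and vessels, had the highest promoter level at 58.1 per kb, above 89.3% of all promoter peaks. Hes1, a classical target of the pathway, followed with 48.2 per kb, and Hey1, a further target and repressor, had 39.5 per kb. Next came the receptors Notch1 with 28.9 per kb and Notch2 with 21.8 per kb, and the ligand Dll1 with 20.6 per kb. Notch3, a receptor best known from vascular mural cells, had 14.7 per kb. Heyl, Dll4 and Jag2 were at the low end with 10.7, 10.5 and 9.47 per kb. The median was 26.9 per kb over all promoter peaks and 13.2 per kb over all peaks, so 4 of the 10 promoters were above the first and 3 were below the second.
In the order of levels, the 4 samples of Jag1 lay between 54.7 and 61.7 per kb and did not overlap those of Hes1, between 45.8 and 51.0 per kb. The Hes1 and Hey1 samples did not overlap either, since Hey1 lay between 30.3 and 44.3 per kb, while Hey1 and Notch1 overlapped, with Notch1 between 26.7 and 31.7 per kb and apart from all lower promoters. Notch2, between 20.3 and 23.3 per kb, overlapped Dll1, between 20.1 and 21.2 per kb, and Dll1 touched the range of Notch3, between 12.3 and 20.2 per kb. Heyl, between 6.18 and 15.8 per kb, overlapped Notch3, Dll4 and Jag2, so no order among these weak promoters was seen beyond the spread of the samples.

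**Figure D1:**
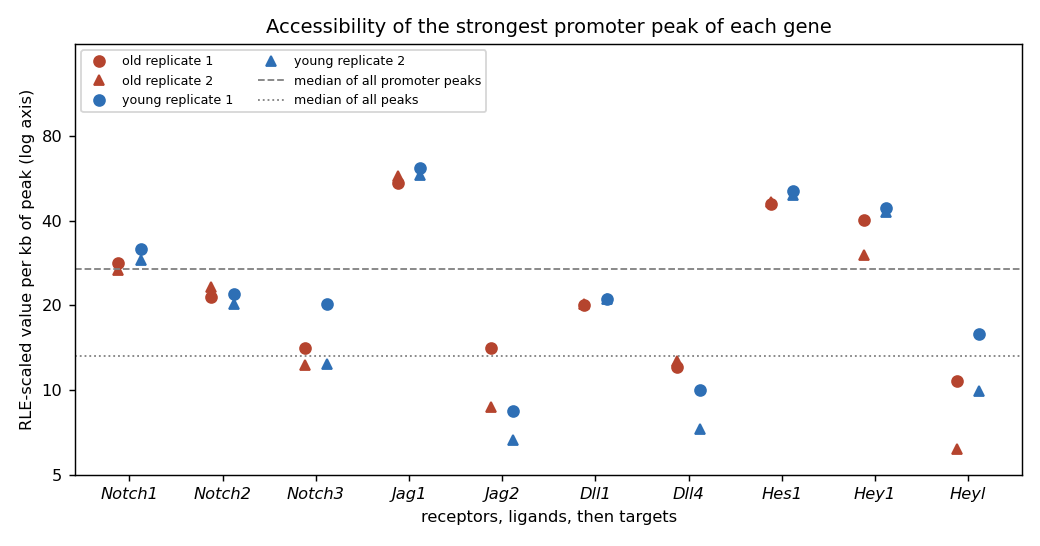
Points are the RLE-scaled values per kb (log axis) of the promoter peak with the highest value at each of the 10 genes, in 2 old and 2 young samples, and lines are the medians of all promoter peaks (26.9) and of all peaks (13.2). Jag1, Hes1 and Hey1 sit above the upper line in all 4 samples. Dll4 sits below the lower line in all 4 samples, and Jag2 and Heyl have samples on both sides of it.

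The 3 targets differed in how far their open chromatin reached. The only peak of Hes1 spanned 16000 bp, from 30056401 to 30072400 on chromosome 16, whereas the gene itself is 3413 bp long, and it held all 4 exons. The only peak of Hey1 spanned 4800 bp of chromosome 3, from 8664201 to 8669000, and covered all 5 exons. Heyl, a related repressor, had 4 separate peaks. Among the receptors, Notch2 had peaks that summed to 67600 bp over a gene of 136835 bp, and its widest intronic peak covered 14700 bp of intron 1. The most accessible promoter peak of Notch1 was not at the outermost annotated start but 14512 bp downstream of it, at the start of the main transcript with 34 exons, where it reached 28.9 per kb against 17.6 per kb at the outer start.

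The comparison of old with young MSCs asked whether ageing changes accessibility at these genes. The lowest p was at a Heyl peak, and 3 of the 4 Heyl peaks had lower values in old MSCs. Next by p were single peaks inside Notch1 and Notch2 and the Jag2 promoter at the alternative start, with higher values in old MSCs, while the summed accessibility of Notch1, Notch2, Notch3, Jag1, Dll1 and Hes1 lay between -0.10 and 0.06 on the log2 scale. None of these differences passed the test over all peaks. With limma (trended and robust moderation, Benjamini-Hochberg adjustment over 117282 peaks), 0 of the 50 peaks had an adjusted p under 0.01, where 0.0563% of all peaks did, and 0 had an adjusted p under 0.05, where 1.12% did. The lowest adjusted p was 0.0666. At an unadjusted p under 0.05, 3 peaks (6%) were lower in old MSCs, against 8.87% of all peaks, and 7 (14%) were higher, against 7.49% of all peaks. By limma-voom on the recovered counts, 0 peaks passed an adjusted p of 0.01, and 6 lower (against 9.53% of all peaks in that fit) and 8 higher (against 8.05%) had an unadjusted p under 0.05.
The old samples differed from each other. Old replicate 2 had 6.52% of its summed values in peaks of the mitochondrial genome, against 13.5% to 15.7% in the other 3 samples, and the values of old replicate 1 had a Pearson r of 0.952 with young replicate 1 and of 0.956 with old replicate 2 (across peaks, which are not independent). The part of these differences in the results was not tested. Without old replicate 1 there were 4 peaks at an adjusted p under 0.01 (the Hey1 promoter, the Notch2 peak from 98088401, the Heyl promoter and the Heyl peak from 123237801), and without old replicate 2 there were 3 (both Jag2 promoters and the same Heyl peak). With young replicate 1 or young replicate 2 left out, hardly any peaks of the data were called. Those fits therefore cannot show whether the call of 0 peaks depended on the young samples. In such fits the lone sample is assumed to vary like the other group, and the fits without old replicate 1 and without old replicate 2 called 8.83% and 1.43% of all peaks, against 0.0563% with all samples.

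Over the 50 peaks, 25 log2 fold changes (old minus young) were below 0 and 25 above, from -0.76 to 1.09. Their median was -0.0026, beside 0.0011 over all peaks and -0.028 over promoter peaks. The old samples both lay under the young ones at 14 peaks (28%), against 24.2% of all peaks, and both lay above them at 16 peaks (32%), against 23.2% of all peaks. The RLE factors were 0.817 and 1.01 for the old and 1.07 and 1.15 for the young samples, and without them 38 of the 50 log2 fold changes were below 0. On the values as deposited, 25 peaks (50%) had both old below both young samples, against 43.5% of all peaks, and 3 (6%) had them above, against 7.56% of all peaks, and the median was -0.28 beside -0.27 over all peaks. Directions given here are therefore relative to the typical peak. In a bulk assay, fewer cells with an open site and a less open site in each cell cannot be told apart.
By role, the 30 receptor peaks had 1 lower and 3 higher at an unadjusted p under 0.05 (median 0.047), and the 14 ligand peaks had 0 lower and 3 higher (median -0.081). The 6 target peaks, 4 of them at Heyl, had 2 lower and 1 higher, all at Heyl (median -0.38). Of the 6, 5 were below 0, beside 58496 of all 117282 peaks.

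**Figure D2:**
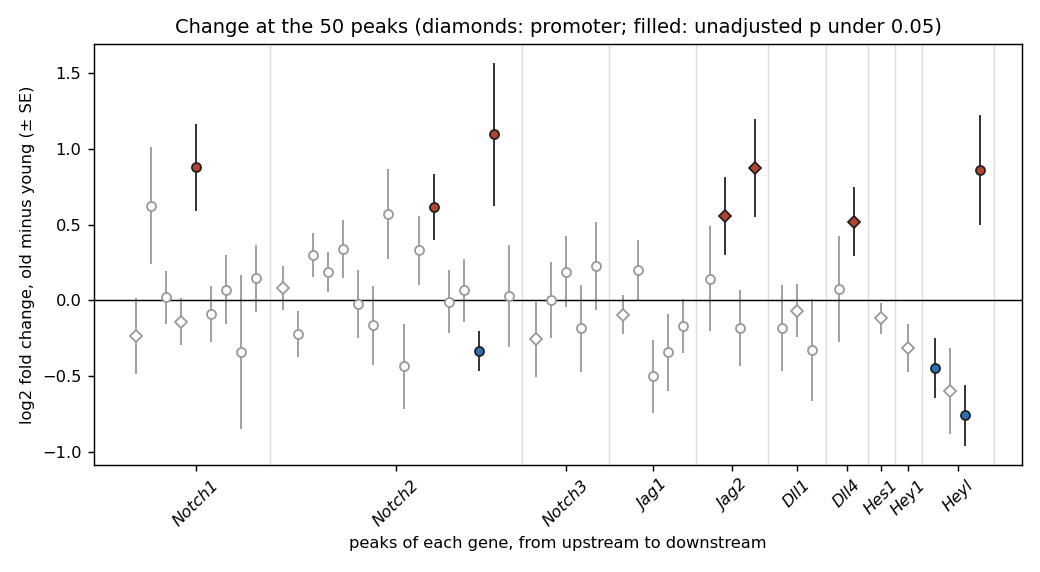
Each point is 1 of the 50 peaks, ordered along its gene in the direction of transcription, and the vertical axis is the log2 fold change of the RLE-scaled value plus 1, old minus young, with its standard error. Diamonds are promoter peaks, and filled points have an unadjusted p under 0.05 (red higher, blue lower in old MSCs). Filled points stand on both sides of 0 at Heyl and Notch2, and only above 0 at Jag2 and Dll4.

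Heyl on chromosome 4 gave the lowest p of the 10 genes. Its peak over exon 2 (coding) and the flanking introns 1 and 2, from 123237801 to 123240300, had values of 45.4 and 41.3 in old replicates 1 and 2 and of 80.2 and 67.9 in young replicates 1 and 2. Both old samples were well below both young ones. The log2 fold change was -0.76 (SE 0.20), with an unadjusted p of 0.00130 and a limma adjusted p of 0.0666. Over the 16 settings run at the peaks the value stayed between -1.04 and -0.64, with adjusted p between 0.000189 and 0.562. The highest of these came without young replicate 1, and the lowest without old replicate 1.
The upstream peak of Heyl, from 123225601 to 123229900, had 56.9 and 50.1 in old and 81.2 and 65.5 in young MSCs. The groups did not overlap there either, and the log2 fold change was -0.44 (SE 0.20, unadjusted p = 0.0384, limma adjusted p = 0.275). The promoter peak from 123231601 to 123234300, over exon 1, had 29.1 and 16.7 in old and 42.6 and 26.9 in young MSCs. Here old replicate 1 exceeded young replicate 2, so the groups overlapped, and the log2 fold change of -0.59 (SE 0.28) stood just outside the looser threshold, with an unadjusted p of 0.0506 and a limma adjusted p of 0.307. It was -0.98 without old replicate 1 and -0.92 without young replicate 2, but -0.20 without old replicate 2 and -0.28 without young replicate 1.
The fourth Heyl peak, over untranslated sequence of the last exon from 123248801 to 123249700, had the opposite direction. Its values were 7.28 and 11.8 in old and 5.28 and 4.13 in young MSCs, and the log2 fold change was 0.86 (SE 0.36, unadjusted p = 0.0276, limma adjusted p = 0.241). It rested on few counts, between 14 and 39 in a sample, and was 0.55 without old replicate 2 (unadjusted p = 0.215).

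The other targets had 1 peak each, and both were lower in old MSCs without passing the test. The Hey1 peak had 193.9 and 145.3 in old and 212.5 and 205.8 in young MSCs. Old replicate 2 was the low sample and old replicate 1 was close to the young ones. The log2 fold change was -0.32 (SE 0.16, unadjusted p = 0.0620, limma adjusted p = 0.334). It was -0.53 without old replicate 1 (adjusted p = 0.000298) and -0.099 without old replicate 2 (adjusted p = 0.707), and over all settings its adjusted p reached 0.908. The Hes1 peak held the most counts of all 50, between 1711 and 2669 in a sample, and so had the smallest error. Its values were 732 and 746 in old and 816 and 788 in young MSCs, which did not overlap, and the log2 fold change was -0.12 (SE 0.10, unadjusted p = 0.261, limma adjusted p = 0.603).

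Among the ligands, peaks higher in old MSCs at an unadjusted p under 0.05 lay only at Jag2 and Dll4. Their promoters were the weakest of the 4. An intronic Jag1 peak, from 137107701 to 137111800, was also above 0 (log2 fold change 0.20, SE 0.20, limma unadjusted p = 0.320). The peak over the first start of Jag2, from 112928001 to 112931300 on chromosome 12, covered exons 1 and 2 and had 46.7 and 28.8 in old and 27.7 and 21.8 in young MSCs. Old replicate 1 was high, and old replicate 2 was close to young replicate 1. The log2 fold change was 0.56 (SE 0.26, unadjusted p = 0.0440, limma adjusted p = 0.290). The second promoter peak of Jag2 lay at an alternative start, over exons 6 to 8 of the main transcript, from 112916401 to 112919300. It had 32.1 and 20.02 in old and 19.5 and 9.15 in young MSCs, and the log2 fold change was 0.87 (SE 0.32, unadjusted p = 0.0147, limma adjusted p = 0.183). At both peaks the groups did not overlap but the gap was small beside the distance between the old samples. Without old replicate 2 both passed, the alternative start with 1.21 and the first start with 0.91 (adjusted p = 0.00428 and 0.00997). Without old replicate 1 the values were 0.54 and 0.22 (unadjusted p = 0.0831 and 0.394), and without young replicate 2 they were 0.36 and 0.39, while without young replicate 1 the value at the alternative start was 1.37. Over all settings their adjusted p reached 0.948 and 0.934.
The strongest other peak of Jag2, over exon 3 from 112921401 to 112923400, had 28.3 and 21.5 in old and 33.0 and 23.9 in young MSCs, and the groups overlapped (log2 fold change -0.18, SE 0.25).
Dll4, best known as an endothelial ligand, had a promoter peak from 119325001 to 119328400 on chromosome 2, over exons 1 to 4. Its values were 41.1 and 43.1 in old and 34.0 and 24.8 in young MSCs, so that both old samples were above both young ones. The log2 fold change was 0.52 (SE 0.23, unadjusted p = 0.0361, limma adjusted p = 0.268), and it was 0.30 without young replicate 2 (unadjusted p = 0.386). The upstream peak of Dll4, from 119322201 to 119323100, had 6.85 and 11.2 in old and 10.6 and 6.50 in young MSCs and showed no separation of the groups (log2 fold change 0.07, SE 0.35).

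At the promoter peaks of Jag1 and Dll1 the difference between the ages was smaller than its SE. The Jag1 promoter peak, from 137112901 to 137118200 on chromosome 2, had 289.8 and 306 in old and 327 and 309 in young MSCs. Although the groups did not overlap, the gap between the nearest samples was small, and the log2 fold change was -0.09 (SE 0.13, unadjusted p = 0.478, limma adjusted p = 0.769). The strongest other peak of Jag1, over the last exon, had 94.2 and 78.3 in old and 92.7 and 100.4 in young MSCs, which overlapped. An exonic Jag1 peak over exon 4, from 137100501 to 137101600, lay just outside the looser threshold, with 21.4 and 18.5 in old and 27.4 and 29.8 in young MSCs (log2 fold change -0.50, SE 0.24, unadjusted p = 0.0531).
The Dll1 promoter peak, from 15374601 to 15378800 on chromosome 17, had 84.3 and 84.6 in old and 88.4 and 88.9 in young MSCs. The samples of each age were nearly equal, and the log2 fold change was -0.07 (SE 0.17, unadjusted p = 0.699). The upstream Dll1 peak, from 15380301 to 15381400, had 14.1 and 11.8 in old and 16.5 and 13.3 in young MSCs, and the groups overlapped.

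**Figure D3:**
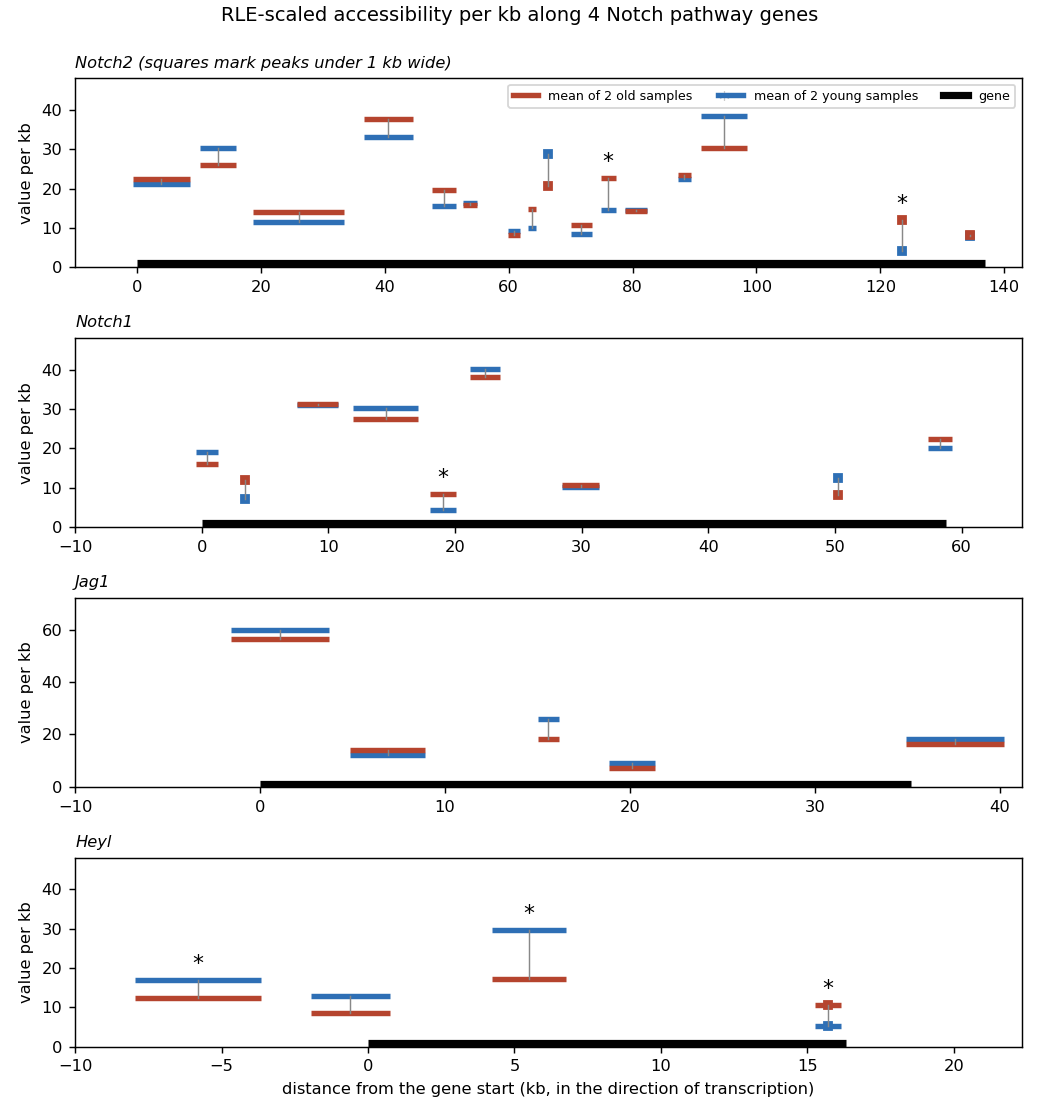
Horizontal bars show the mean RLE-scaled value per kb of each peak in 2 old (red) and 2 young (blue) samples at its place along Notch2, Notch1, Jag1 and Heyl, with the gene as a black bar and the distance from its start in kb. Asterisks mark an unadjusted p under 0.05, and squares mark peaks under 1 kb wide. At Heyl the blue bars lie above the red ones at 3 of 4 peaks, and at Notch2 the order alternates along the gene.

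The receptor Notch2 had the most peaks, and they lay on both sides of 0. Of its 16 peaks, 10 had a log2 fold change above 0 and 6 below, with a median of 0.07. The promoter peak, from 98012901 to 98022000 on chromosome 3, had 195.2 and 212.4 in old and 200.3 and 184.5 in young MSCs, and the groups overlapped (log2 fold change 0.08, SE 0.14). The strongest other peak, in intron 2 from 98050101 to 98058100, had 281.7 and 322.5 in old and 263.0 and 265.7 in young MSCs, and the log2 fold change was 0.19 (SE 0.13, unadjusted p = 0.173).
In intron 5, the peak from 98088401 to 98090800 had 48.4 and 60.7 in old and 37.95 and 32.2 in young MSCs. The groups were separate, and the log2 fold change was 0.62 (SE 0.22, unadjusted p = 0.0105, limma adjusted p = 0.158). Further along the gene, the peak over exons 11 to 13, from 98104501 to 98112000, had the opposite direction, with 228.2 and 228.4 in old and 296.7 and 278.7 in young MSCs. The old samples were nearly equal and both below the young ones, and the log2 fold change was -0.33 (SE 0.13, unadjusted p = 0.0224, limma adjusted p = 0.221). The third, a peak of 300 bp in intron 25 from 98136801 to 98137100, had 3.00 and 4.25 in old and 0.66 and 1.77 in young MSCs. It had the highest log2 fold change of the 50 (1.09, SE 0.47, unadjusted p = 0.0314, limma adjusted p = 0.254) but only 7 and 14 counts in old and 2 and 6 counts in young samples. The lower of the young samples was thus under the floor of 3 counts.

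Notch1 had a single peak past the looser threshold. It lay in intron 2 of the main transcript and over an exon of another transcript, from 26496601 to 26498600 on chromosome 2, and had 16.7 and 17.0 in old and 8.58 and 8.86 in young MSCs. The samples of each age were close together and the groups were apart, with a log2 fold change of 0.88 (SE 0.29, unadjusted p = 0.00664, limma adjusted p = 0.131). Its level of 6.39 per kb was the lowest of all 50 peaks. The promoter peak at the main start, from 26499601 to 26504700, had 144.7 and 136.2 in old and 161.7 and 147.9 in young MSCs (log2 fold change -0.14, SE 0.15, unadjusted p = 0.380), and an intronic peak upstream of that start, from 26505901 to 26509100, had 103.6 and 96.5 in old and 106.9 and 90.9 in young MSCs (0.02, SE 0.17). At both of these peaks the difference was smaller than its SE.
Notch3 had 0 of 5 peaks at an unadjusted p under 0.05. Its promoter peak, from 32164801 to 32167400 on chromosome 17, had 36.8 and 31.9 in old and 52.5 and 32.2 in young MSCs, where 1 young sample stood above the other 3 (log2 fold change -0.26, SE 0.24). Its strongest other peak, over exons 21 to 24 from 32142901 to 32145300, had 30.4 and 31.9 in old and 29.7 and 24.8 in young MSCs (0.19, SE 0.23).

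To give each gene a single value, the deposited values of all its peaks were summed. The sums were scaled by RLE factors of their own, 0.787 and 1.03 for the old and 1.09 and 1.14 for the young samples. They were tested in the same way over 17295 protein-coding genes. With limma, 0 of the 10 sums had an adjusted p under 0.05, where 0.0116% of all genes did. At an unadjusted p under 0.05, 1 sum was lower in old MSCs, against 4.02% of all genes, and 0 were higher, against 4.81% of all genes. The 1 was Heyl, with 143.9 and 117.5 in old and 206.7 and 166.3 in young MSCs. The groups did not overlap, and the log2 fold change was -0.51 (SE 0.16, unadjusted p = 0.00983, limma adjusted p = 0.445). The sum of Dll4 was 49.7 and 53.2 in old and 44.0 and 31.7 in young MSCs (0.45, SE 0.22, unadjusted p = 0.0602), and its log2 fold change was 0.22 without young replicate 2. The sum of Hey1 had 201.2 and 142.5 in old and 210.0 and 208.1 in young MSCs (-0.30, SE 0.17), and that of Jag2 had 135.5 and 77.9 in old and 92.6 and 68.7 in young MSCs (0.36, SE 0.25). In both, 1 old sample carried the difference. The other 6 genes lay between -0.10 and 0.06 on the log2 scale. Without old replicate 1, the sums of Heyl (-0.66, adjusted p = 0.000167) and Hey1 (-0.56, adjusted p = 0.000226) passed, but 32.5% of all genes passed in that fit. Without old replicate 2 the sum of Jag2 (0.77, adjusted p = 0.000633) passed, as did 3.69% of all genes, and without old replicate 1 it was -0.04.

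The remaining genes of the pathway were followed in a list of 45, which had 297 peaks. With limma, 0 of these peaks had an adjusted p under 0.01, against 0.0563% of all peaks, and 2 had one under 0.05, against 1.12%. At an unadjusted p under 0.05, 15 (5.05%) were lower and 25 (8.42%) higher in old MSCs, read against the same shares of all peaks as above, and the median log2 fold change was 0.08. The lower of the 2 peaks was in Dner, a transmembrane ligand-like protein, from 84449201 to 84450500 on chromosome 1. It had 48.8 and 40.05 in old and 74.3 and 91.8 in young MSCs, and the log2 fold change was -0.89 (SE 0.20, limma adjusted p = 0.0421). The higher one was in Numb, an endocytic inhibitor of Notch receptors, from 83874401 to 83875500 on chromosome 12. It had 17.1 and 22.4 in old and 8.58 and 7.09 in young MSCs, and the log2 fold change was 1.23 (SE 0.29, limma adjusted p = 0.0494). In both the groups were clearly apart, and both peaks were intronic. Next was an intronic peak of Psen2, a catalytic subunit of γ-secretase, from 180231501 to 180232500 on chromosome 1, with 8.99 and 6.98 in old and 18.8 and 19.2 in young MSCs (-1.16, SE 0.29, limma adjusted p = 0.0561).
By role, ligands and ligand-like genes had 6 lower and 2 higher of 26 peaks, and all 6 lower ones belonged to Dner, which had 19 peaks. Nuclear effectors had 6 lower and 17 higher of 164 peaks. Of the 17, 8 were in Maml3, a Mastermind coactivator with 45 peaks, which was singled out after its values were seen. The ubiquitin ligases and endocytic regulators had 1 lower and 5 higher of 60 peaks, and Notch4 had 1 higher of 3. The cleavage machinery had 2 lower and 0 higher of 25 peaks, the sugar transferases that modify the receptors had 0 of 10, and the further targets and feedback genes had 0 of 9 in either direction. As sums per gene, 0 of the 45 passed an adjusted p of 0.05, against 0.0116% of all genes. Dner (-0.40) and Dlk2 (0.49) had an unadjusted p under 0.05. That is 2.22% of the 45 in each direction, against 4.02% lower and 4.81% higher of all genes.

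**Figure D4:**
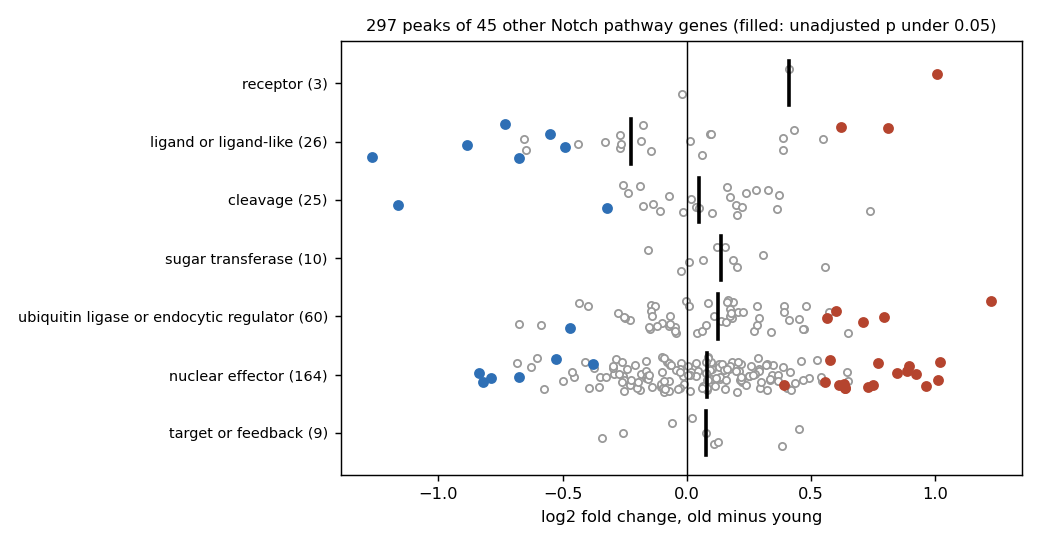
Each point is 1 of the 297 peaks of 45 further pathway genes, grouped by role with the number of peaks in parentheses, at its log2 fold change, old minus young; vertical bars are medians. Filled points have an unadjusted p under 0.05 (red higher, blue lower in old MSCs), and among the nuclear effectors 17 are red and 6 blue.

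The peaks of the 10 genes were richer in G and C than the typical peak, with a median of 52.1% against 46.1% over all peaks and 51.8% over promoter peaks, and were about as wide as promoter peaks (median 2450 against 2500 bp). Over their whole length, 31 of the 50 peaks held the RBPJ motif, 55 times in all, or 0.329 times per kb against 0.242 times per kb in all peaks. In the central 300 bases, 1 of 49 peaks long enough to be searched (2.04%) held it, against 7.07% of all peaks. HES and HEY sites stood in the central 300 bases of 4 peaks (8.16%), against 6.90% of all peaks and 16.3% of promoter peaks. With so few matches these shares describe the peaks and were not tested.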

How the data were processed

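ATAC-seq values of 2 old and 2 young samples were analysed at 117282 peaks. The deposited values, named RPKM by the authors, were treated as a score, since 100% of them were whole multiples (within 0.01 of a count) of a step per sample that did not depend on peak width. Per the labels, reads were mapped to mm10 with Bowtie2 and duplicates removed with Picard. The study's methods, written for cells of another experiment, take peaks and values from chromstaR and scale them by RLE. At a scale of 10000000, the steps corresponded to between 28259470 and 32559794 counts per library, and 3 counts to values between 0.921 and 1.06. Whether these equal reads was not tested.

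Genes came from GENCODE vM21. After division by RLE factors, log2(value + 1) was tested with limma 3.58.1 in R 4.3.3, because the values are not raw counts. Fold changes on this scale understate changes of weak peaks. Exact permutation of 2 against 2 samples cannot go below p = 0.33. The limma step was also run on simulated counts with a single dispersion for all peaks. These did not hold the differences between the old samples, so that run does not measure the errors of the test here. Python 3.11.15, pandas 2.3.3, numpy 2.4.6, pysam 0.24.0 and matplotlib 3.10.9 did the rest.

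The members and lists were chosen with earlier results of these data known. Values are given for the strongest promoter and strongest other peak of each gene, for peaks with an unadjusted p under 0.05 and, in the list of 45 genes, for the 3 lowest p and any adjusted p under 0.05. The few peaks just outside the looser threshold were added after their values were seen. Each choice of scaling, pseudocount (0.1 or 5), weak-peak filter, moderation, replicate block, upstream reach (2 kb) and threshold was varied in turn, each sample was left out, and limma-voom was run. A crossed replicate block and a GC and width correction were added after the data were seen.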

Additional observations from a re-analysis of the deposited data

How the results depend on the processing

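Counts of the 50 peaks at an adjusted p under 0.01 stayed at 0 under every alternative that kept all samples, except the crossed replicate block. That fit called 1 of the 50, the Heyl peak from 123237801, and 2.74% of all peaks. The fits without a sample are described above. Against 3 lower and 7 higher peaks at an unadjusted p under 0.05, the lower count was 10 on the values as deposited (18.5% of all peaks were lower in that fit), 1 with equal total signal (6.69%), 1 with plain moderation (8.04%), 6 with the crossed replicate block (10.6%), 6 with limma-voom (9.53%), 6 with the GC and width correction (8.85%) and 0 to 7 without a sample (3.49% to 15.8%); the higher count was 0 on the values as deposited (1.70%) and 2 to 8 without a sample (3.46% to 13.5%). Against 15 and 25 in the wider list, there were 40 and 6 as deposited, 9 lower with equal total signal, and 4 to 33 lower and 10 to 57 higher without a sample. Summed genes at an adjusted p under 0.05 numbered 0 to 2 without a sample, where 0.0231% to 32.5% of all genes passed. The median of the 50 peaks, -0.0026, was -0.28 as deposited, -0.077 with the GC and width correction and -0.10 to 0.055 without a sample. The scaling itself sets the offset of the deposited values, whose median over all peaks is -0.27; the causes of the other moves were not tested.

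Some directions reversed. As deposited, values became -0.27 at the Notch1 peak from 26505901, -0.18 at the Dll4 upstream peak, -0.21 at the Notch2 promoter, -0.10 at the Notch2 peak from 98050101, -0.089 at the Notch3 peak from 32142901 and -0.24 for the Notch2 sum. The GC and width correction gave -0.010 at that Notch1 peak and -0.11 at that Dll4 peak, and the filter on weak peaks gave 0.0033 for the Notch1 sum. Leaving out a sample gave ranges of -0.099 to 0.13 at that Notch1 peak, -0.24 to 0.39 at the Dll4 upstream peak, -0.41 to 0.040 at the Jag2 peak from 112921401, -0.60 to 0.083 at the Notch3 promoter, -0.075 to 0.058 for the Notch1 sum, -0.23 to 0.19 for the Notch3 sum and -0.038 to 0.77 for the Jag2 sum.

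With a replicate block, 0 peaks had an adjusted p under 0.01, against 1.08% of all peaks in that fit. At an unadjusted p under 0.05, 2 peaks were lower and 7 higher, and the wider list had 12 and 23. The shares of all peaks were 8.13% lower and 6.86% higher. No gene sum passed, where 0.786% of all genes did. The deviations of samples with the same number correlated with -0.099 over peaks and -0.16 over gene sums, so the numbers do not show pairing. With the crossed replicate block the wider list had 18 and 30, where 10.6% of all peaks were lower and 9.19% higher. Depth limits weak peaks, where 3 counts give a value of about 1, and this floor covers counting error only. The SEs come from the moderated spread between samples.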
